A study of Mus musculus with 12 samples.

Results

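The genes described here are 39 genes of fibroblasts and of the extracellular matrix, measured in 12 tumors grown from CT-26, a mouse colon carcinoma cell line. They were chosen by symbol, each symbol was found once by its mouse Ensembl identifier, and together they are 39 of the 30630 genes listed for every tumor. All 39 passed the filter on low values, which required 6 or more tumors at 0.1 FPKM or above and left 19018 genes. FPKM is a fragment number divided by gene length and by library depth, so levels of different genes can be compared on this scale.

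CT-26 cells in Matrigel, a gel of basement membrane proteins, were injected under the skin of the right flank of male BALB/c mice that had been bought at an age of 4 to 6 weeks. The control group (n = 6) did not swim, and the swimming group (n = 6) swam 2 times a day on 6 days per week, with sessions lengthened up to 30 min, over 3 weeks. Each tumor was from a different mouse, all tumors came from the same cell line, and RNA was taken from whole tumor tissue without sorting of cells. Replicate numbers only name the tumors here.

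Fibroblasts build most of the collagen-rich matrix between cells. Fibrillar collagens are made as procollagens, trimmed by proteinases outside the cell, assembled into fibrils with small proteoglycans and minor collagens on their surface, and crosslinked by lysyl oxidases. In tumors, fibroblasts that lay down such a matrix are known as cancer-associated fibroblasts, and tumor cells of mesenchymal character can make some of the same proteins.

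For all of the 39 genes but Pdpn, the SD between tumors of the same group was larger than the difference between the groups. Col1a1, which encodes a chain of type I collagen, ranged from 25.8 FPKM in control 5 to 247 FPKM in control 1. Control 1 and swimming 5 were the 2 tumors with the highest values for 27 of the 39 genes (69.2%), compared with 6.24% of all genes tested. This pair was picked after the values of the 39 genes were seen, so the comparison describes the values and is not a test. None of the 39 genes passed an unadjusted p of 0.05 in the comparison of swimming with control, beside 5.56% of all genes tested. For 39 genes, this count is near that share.

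The tumors are labelled as CT-26 cells, and the sequenced tissue also held RNA of other cells. Epcam, an epithelial surface protein, was at most 0.177 FPKM, and Cdh1, which encodes E-cadherin, was at most 0.43 FPKM. The intestinal keratin gene Krt20 was between 99.8 and 194 FPKM in every tumor. Of the other epithelial markers in the list of 10, Krt8 ranged from 1.86 FPKM in control 3 to 129 FPKM in control 4. Krt18 ranged from 5.89 to 14.8 FPKM, and Krt19, Cldn4, Cldn7, Cdx2 and Vil1 were at most 0.757 FPKM. Fibroblast markers were present in all 12 tumors. Pdgfra, a growth factor receptor of fibroblasts, ranged from 3.14 to 7.14 FPKM, and Pdgfrb, its relative on fibroblasts and pericytes, from 9.51 to 19.5 FPKM. In such bulk tissue, fewer fibroblasts and less RNA per fibroblast cannot be told apart. The FPKM values summed to between 380139 and 407109 per tumor. Absolute depth is unknown. Relative depth was read from weakly expressed genes against control 1, which was set to 1. It was lowest in control 2 (0.694) and ran from 0.871 to 0.973 in the remaining tumors.

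Promoter sequences are shown for 3 genes that lie at the ends of the observed range of spread. Postn had the highest SD between tumors of the same group among the 39 genes, Col3a1 was among the 4 highest, and Prrx1 had the lowest. Each line gives the 250 bases before the start of the gene in RefSeq on GRCm38.p6, 5′ to 3′ on the strand of the gene, and capitals mark the letters TATAAA, a form of the TATA box.
Postn, chr3:54360857-54361106, plus strand: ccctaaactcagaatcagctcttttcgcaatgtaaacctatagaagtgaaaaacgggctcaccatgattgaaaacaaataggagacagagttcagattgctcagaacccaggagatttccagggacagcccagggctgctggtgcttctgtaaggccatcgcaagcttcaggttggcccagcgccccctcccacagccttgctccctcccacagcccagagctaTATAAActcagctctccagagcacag
Col3a1, chr1:45311288-45311537, plus strand: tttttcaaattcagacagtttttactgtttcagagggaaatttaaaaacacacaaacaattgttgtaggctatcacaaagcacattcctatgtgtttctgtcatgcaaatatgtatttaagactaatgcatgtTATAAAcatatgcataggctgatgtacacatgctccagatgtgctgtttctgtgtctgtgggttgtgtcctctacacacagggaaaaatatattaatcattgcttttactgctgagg
Prrx1, chr1:163313651-163313900, minus strand: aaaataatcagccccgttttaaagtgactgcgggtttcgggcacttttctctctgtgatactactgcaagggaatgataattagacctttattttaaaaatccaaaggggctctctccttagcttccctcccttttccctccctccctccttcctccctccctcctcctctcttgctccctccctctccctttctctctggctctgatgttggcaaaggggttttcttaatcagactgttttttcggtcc
The letters TATAAA began at position -26 from the start in Postn and at position -117 in Col3a1, and were not in the Prrx1 window. The RefSeq start of Prrx1 lies 60 bases inside the gene as annotated in GENCODE M21. Part of the Prrx1 window is therefore within the gene by that annotation. RefSeq promoters were matched to 24 of the 39 genes by symbol. On either strand, TATAAA was found in 4 of these 24 windows (16.7%) and in 12.4% of all 32851 promoter windows. CCAAT was found in 4 of the 24 (16.7%) and in 33.8% of all windows, and GGGCGG, the core of the GC box, in 9 of the 24 (37.5%) and in 32.7% of all windows. The 3 motifs were counted separately, and these matches describe the sequence only.

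The levels of the 39 genes covered a wide range. Fn1, which encodes fibronectin, had the highest mean over the 12 tumors (396 FPKM), followed by Sparc, a collagen-binding glycoprotein (191 FPKM), Col1a2 (141 FPKM), Pcolce (102 FPKM), Col3a1 (100.2 FPKM) and Col1a1 (94.0 FPKM). The ranges of neighbors in this order overlapped across tumors. The lowest means were those of Fap (0.579 FPKM) and Igf1 (0.561 FPKM), which also overlapped. Values of such weakly expressed genes are the least precise.

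The spread between tumors of the same group was measured as the SD of log2(FPKM + 1) within groups. Its median over the 39 genes was 0.559, compared with 0.150 over all genes tested and 0.148 over the 12737 genes that reached 1 FPKM in 6 or more tumors. A wide spread was not particular to these genes. The median was 0.508 over 23 other fibroblast markers, 0.440 over 11 mural and myofibroblast markers, 1.12 over 5 adipocyte markers and 1.53 over 12 skeletal muscle markers. It was lower in other lists, such as 12 endothelial markers (0.242) and 12 basement membrane genes (0.209). The SD was above 0.323, the 90th percentile of all genes tested, for 33 of the 39 genes, and below the median of all genes for 1 gene, Prrx1 (0.113). The highest SD values were those of Postn (1.11), Col1a1 (1.10), Lum (1.08) and Col3a1 (1.06). In 20 of the 39 genes the highest tumor was more than 5-fold above the lowest. In 5 genes the highest tumor was less than 2-fold above the lowest, which were Fbln2 (1.89-fold), Thbs2 (1.83-fold), Fn1 (1.73-fold), Pcolce (1.71-fold) and Prrx1 (1.31-fold).

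**Figure D1:**
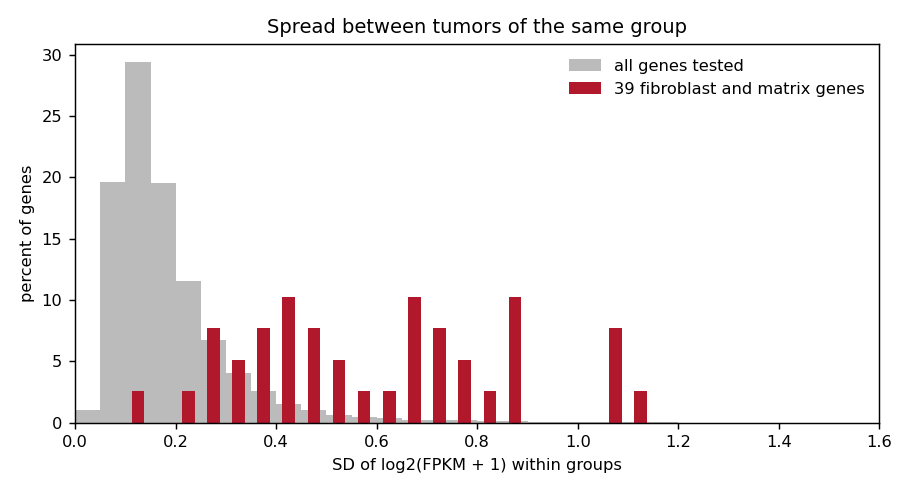
Histogram of the SD of log2(FPKM + 1) within groups (x axis) for all 19018 genes tested (wide grey bars) and for the 39 fibroblast and matrix genes (narrow red bars), as a percent of each set (y axis). The grey bars pile up around a median of 0.150, while 33 of the 39 genes lie above 0.323.

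The tumors with high and low values were mostly the same from gene to gene. Swimming 5 had the highest value for 19 of the 39 genes and control 1 for 12. One of these tumors was thus highest for 31 genes (79.5%), compared with 25.6% of all genes tested, though they were picked from these same values. Each of them was among the 3 highest tumors for 32 genes, swimming 3 for 18 and control 2 for 16. At the other end, control 5 was lowest for 16 genes, and control 3 and control 4 for 7 each. The summed FPKM of the 39 genes was 2251 in control 1 and 2113 in swimming 5, and 1036 in control 5. Both groups therefore held a tumor with high values and tumors with low values.

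**Figure D2:**
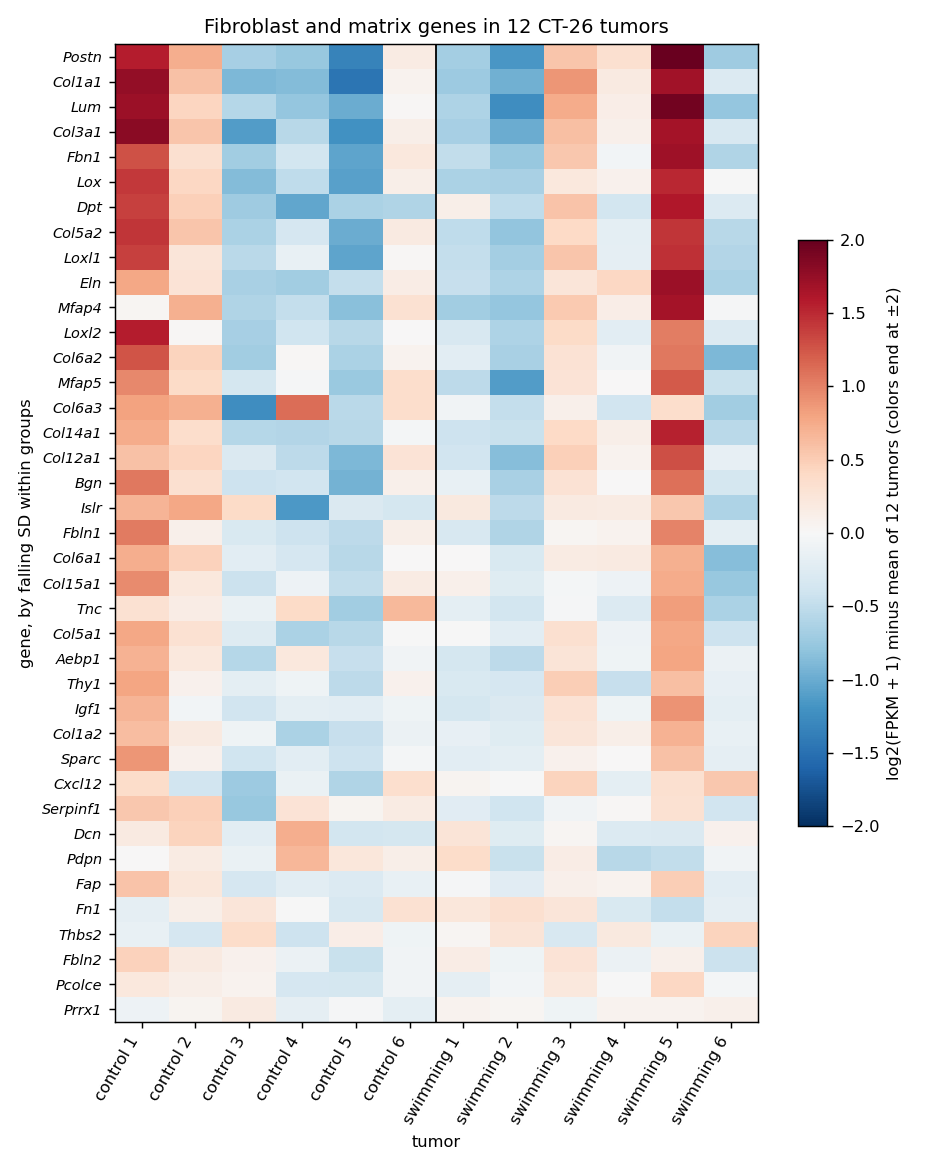
Heat map of the 39 genes (rows, highest SD within groups at the top) in the 6 control and 6 swimming tumors (columns, split by a black line), colored by log2(FPKM + 1) minus the mean of the gene over the 12 tumors. The columns of control 1 and swimming 5 are red in most rows, with control 2 and swimming 3 next, and the bottom row, Prrx1 (SD 0.113), is nearly white.

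Markers of several other cell types were also high in these tumors. The summed level of 8 adipocyte genes was 187 FPKM in control 1, while the other control tumors had 9.01 to 17.5 FPKM. In the swimming group it was 47.1 FPKM in swimming 5, while the others had 11.7 to 21.1 FPKM. The adipocyte hormone Adipoq was 12.6 FPKM in control 1, 3.69 FPKM in swimming 5 and at most 0.971 FPKM elsewhere, with 0 in control 3. The 12 markers of mural cells and myofibroblasts, the contractile cells around vessels and in activated stroma, summed to 81.0 FPKM in control 1 and 89.2 FPKM in swimming 5, and to between 30.1 and 59.3 FPKM in the other tumors. Endothelial markers summed to 73.8 and 65.2 FPKM in these tumors and to between 40.8 and 56.5 FPKM in the others. Skeletal muscle markers followed another order, with 338 FPKM in swimming 5, 242 FPKM in control 6, 231 FPKM in swimming 3 and 46.2 FPKM in control 1, and as little as 2.63 FPKM in swimming 6. Of 8 listed keratinocyte and skin markers, 5 were found in the data, and Krt5, Flg and Dsg3 were not. Krt10 was between 1.505 and 2.617 FPKM in every tumor, and Krt1, Krt14, Krt15 and Lor were at most 0.034 FPKM. The 6 markers of cartilage and bone summed to at most 0.418 FPKM. The 6 B cell markers summed to 6.88 FPKM in control 1 and to between 0.780 and 2.16 FPKM in the other tumors. None of the adipocyte, mural, endothelial, skeletal muscle, macrophage or B cell markers tested passed an unadjusted p of 0.05 in limma, while 3 of 10 T and NK cell markers (Cd3d, Cd3g and Cd8a) and 1 of 6 cell division genes (Mki67) were higher in swimming tumors at that p, beside 3.11% of all genes tested. The groups differed in none of these by an adjusted p of 0.05, and the part that these cells have in the levels of the 39 genes was not tested. Depth relative to control 1 was 0.962 in swimming 5.

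Among the 5 fibrillar collagen genes, values were highest in control 1 and swimming 5 throughout. Col1a1 (chr11:94936224-94953042, plus strand) was 247, 109, 38.5, 39.3, 25.8 and 75.8 FPKM in control 1 to 6 and 43.6, 36.8, 135, 82.0, 235 and 59.7 FPKM in swimming 1 to 6. The groups overlapped over nearly their whole range, and only control 1, swimming 5, swimming 3 and control 2 were above 100 FPKM. The mean was 89.3 ± 83.3 (SD, n = 6) in control tumors and 98.8 ± 75.7 (SD, n = 6) in swimming tumors. On the log2(FPKM + 1) scale the difference of swimming minus control was 0.27 (SE 0.56, limma, unadjusted p = 0.639).

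Col1a2 (chr6:4504814-4541544, plus strand), the partner chain of type I collagen, varied much less. It ranged from 87.2 to 210 FPKM in control tumors, with a median of 127, and from 115 to 221 FPKM in swimming tumors, with a median of 135. The difference was 0.16 (SE 0.21) and the groups overlapped. It was 0.0405 without swimming 5 and 0.30 without control 1. Col3a1, the type III collagen gene, ranged from 33.2 to 275 FPKM (median 69.2) in control tumors and from 38.9 to 251 FPKM (median 73.3) in swimming tumors, with a difference of 0.13 (SE 0.54). The gene overlaps Gm47302, an annotated miRNA gene listed between 118 and 917 FPKM, so how reads were divided between them is part of the value. The type V collagen chain Col5a1, which limits the width of collagen fibrils, ranged from 16.1 to 44.4 FPKM over all tumors with a difference of 0.12 (SE 0.25). Col5a2 ranged from 3.44 to 22.9 FPKM with a difference of -0.07 (SE 0.44).

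**Figure D3:**
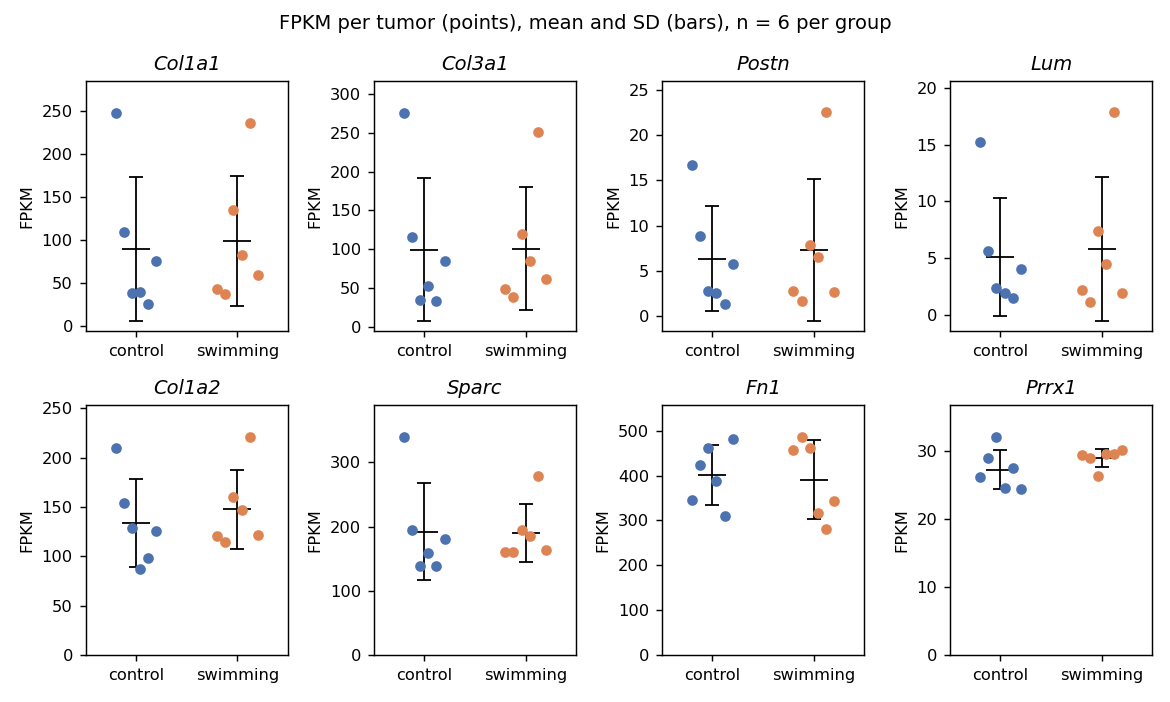
FPKM (y axis, from 0 or below) of 8 genes in the control and swimming groups, with 1 point per tumor in order of replicate number from left to right and black bars for the mean ± SD (n = 6 per group). In Col1a1, Col3a1, Postn and Lum a single tumor stands high in each group, while Fn1 and Prrx1 show no such tumor and in every panel the groups overlap.

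The type I collagen chains did not vary in proportion. Per length, the Col1a1 to Col1a2 ratio was 0.263 in control 5 and 1.18 in control 1, and it was 1.07 in swimming 5 and 0.842 in swimming 3. A straight line through the 12 tumors had an intercept of 92.3 FPKM of Col1a2 (SE 5.57) and rose by 0.515 FPKM of Col1a2 (SE 0.0468) per FPKM of Col1a1. Without control 1 and swimming 5 the intercept was 89.1 FPKM (SE 8.39) and the slope 0.569 (SE 0.115). Control 3, 4 and 5, with 25.8 to 39.3 FPKM of Col1a1, still held 87.2 to 128 FPKM of Col1a2. The ratio of Col3a1 to Col1a1, by contrast, stayed between 0.882 and 1.35 in the 12 tumors although Col1a1 itself covered a 9.60-fold and Col3a1 an 8.29-fold range. Sparc was like Col1a2 in this respect, with an intercept of 120 FPKM (SE 7.66) and a slope of 0.754 (SE 0.0644) on Col1a1, and 134 FPKM (SE 5.92) and 0.529 (SE 0.0812) without those 2 tumors. These lines describe 12 tumors that share their groups and normalization, and are given without a test.

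**Figure D4:**
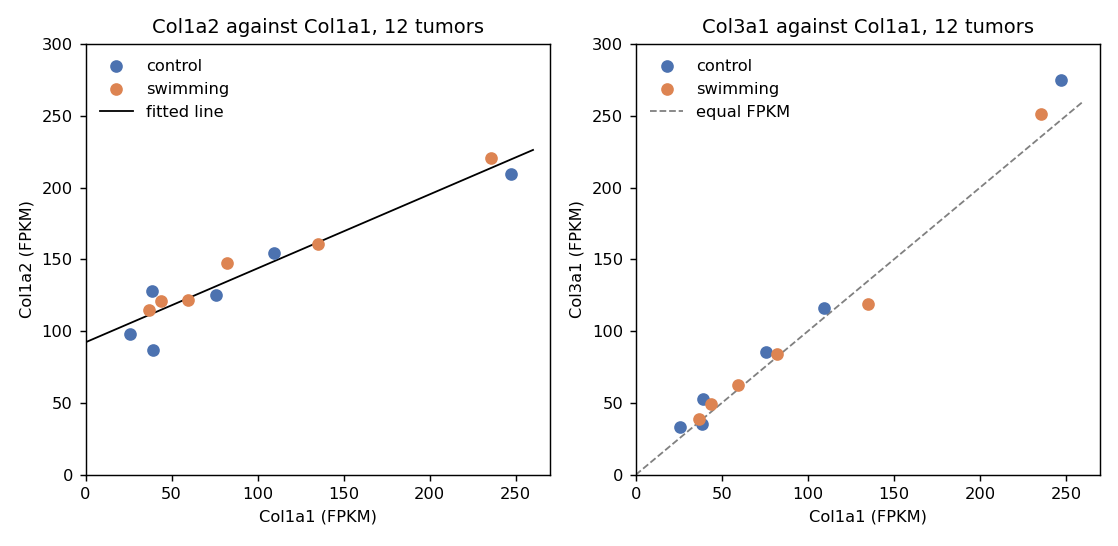
Col1a2 (left) and Col3a1 (right) on the y axes against Col1a1 on the x axes, all in FPKM, for 6 control (blue) and 6 swimming (orange) tumors. The Col1a2 points follow a fitted line (black) that meets the y axis at 92.3 FPKM, whereas the Col3a1 points lie close to the dashed line of equal FPKM.

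Collagen VI forms beaded microfibrils around cells from several chains. Col6a1 and Col6a2 lie on chromosome 10 with 85161 bases between them and were both highest in control 1 and next in swimming 5. Col6a1 (chr10:76708792-76726168, minus strand) ranged from 27.1 to 67.2 FPKM in control tumors and from 21.8 to 66.8 FPKM in swimming tumors, with medians of 37.6 and 42.9, and the difference was -0.03 (SE 0.26). Col6a2 ranged from 4.42 to 20.1 FPKM (median 8.11) and from 3.74 to 17.2 FPKM (median 7.01), with a difference of -0.16 (SE 0.36). The Col6a1 to Col6a2 ratio was lowest in control 1 (3.35) and highest in control 3 (7.87).

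Col6a3 departed from its partner chain Col6a1 mainly in control 3 and control 4. It was 22.6, 21.02, 4.68, 28.2, 8.30 and 16.2 FPKM in control 1 to 6 and 11.8, 8.72, 13.4, 9.30, 16.3 and 7.35 FPKM in swimming 1 to 6. The highest value was in control 4, a tumor with low values of the fibrillar collagens, and none of the 6 swimming tumors was above the control median of 18.6 FPKM. This was the lowest difference among the 39 genes, at -0.39 (SE 0.36, limma, unadjusted p = 0.289, adjusted p = 0.932). Without control 3 the difference was -0.68 with an unadjusted p of 0.0277 in limma, and without control 4 it was -0.21 with an unadjusted p of 0.556. Control 4 also had the highest ratio of Col6a3 to Col6a1, 0.888, and control 3 the lowest, 0.135, while all other tumors had 0.203 to 0.399.

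The collagens XII and XIV, which attach to the surface of fibrils, and collagen XV, which links fibrils to basement membranes, had their 2 highest values in control 1 and swimming 5. Col15a1 ranged from 6.57 to 19.6 FPKM (median 9.90) in control tumors and from 5.32 to 16.8 FPKM (median 9.13) in swimming tumors, with a difference of -0.10 (SE 0.26). Col12a1 ranged from 1.37 to 9.84 FPKM and Col14a1 from 1.80 to 11.4 FPKM over all tumors, both highest in swimming 5. Their differences were 0.14 (SE 0.34) and 0.22 (SE 0.35).

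Of the adhesive and matricellular glycoproteins, which link cells to the matrix or modify their contact with it, Postn had the widest and Fn1 the narrowest range relative to its lowest tumor. Postn, which encodes periostin, was 16.7, 8.88, 2.78, 2.54, 1.37 and 5.72 FPKM in control 1 to 6 and 2.75, 1.66, 7.84, 6.51, 22.6 and 2.67 FPKM in swimming 1 to 6. Swimming 5 was thus 16.5-fold above control 5, the lowest tumor. Its difference between the groups was 0.10 (SE 0.57).

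Fn1 (chr1:71585520-71653200, minus strand) ranged from 310 to 481 FPKM (median 406) in control tumors and from 281 to 485 FPKM (median 400.4) in swimming tumors. Its lowest value was in swimming 5, where most collagens were among their highest, and the Fn1 to Col1a1 ratio ran from 1.19 in swimming 5 and 1.39 in control 1 to 13.2 in swimming 2. The difference between the groups was -0.05 (SE 0.15). Thbs2, which encodes the matricellular protein thrombospondin 2, also lay outside the common order, with a range of 45.9 to 84.2 FPKM, the highest value in swimming 6 and a difference of 0.16 (SE 0.15).

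Sparc was between 139 and 339 FPKM in control tumors and between 160 and 278 FPKM in swimming tumors, with a difference of 0.03 (SE 0.21). Tnc, which encodes tenascin C, ranged from 6.59 to 21.1 FPKM, and only 1 of 6 swimming tumors, swimming 5, was above the control median of 13.5 FPKM. Its difference was -0.22 (SE 0.25, limma, unadjusted p = 0.398).

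Dcn and Lum encode decorin and lumican, small leucine-rich proteoglycans that bind collagen fibrils, and lie 46984 bases apart on chromosome 10. Their levels did not follow each other. Dcn was 23.8 to 51.7 FPKM (median 30.9) in control tumors and 25.1 to 36.9 FPKM (median 28.9) in swimming tumors, with its highest value in control 4 and a difference of -0.14 (SE 0.18). Without control 4 the Dcn difference was -0.0109, and without control 5 it was -0.23. Lum was 1.51 to 15.3 FPKM (median 3.23) and 1.12 to 17.9 FPKM (median 3.36), with its highest values in swimming 5 and control 1 and a difference of 0.06 (SE 0.55). The Dcn to Lum ratio was 1.40 in swimming 5 and 26.9 in control 4.

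Bgn, the X-linked gene of the related proteoglycan biglycan, ranged from 10.6 to 46.4 FPKM with a difference of 0.08 (SE 0.33). Dpt encodes dermatopontin, which binds decorin and collagen. It was 26.9, 14.1, 5.65, 4.29, 6.06 and 6.19 FPKM in control 1 to 6 and 10.8, 6.69, 15.2, 7.42, 32.2 and 7.98 FPKM in swimming 1 to 6. All 6 swimming tumors were above the control median of 6.12 FPKM, and control 1 and control 2 were above most of them. The difference was 0.38 (SE 0.44, limma, unadjusted p = 0.399), and it was 0.0979 without swimming 5 and 0.69 without control 1.

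The genes of elastic fibers and microfibrils contained both weakly and strongly expressed members. Fbln2, whose product fibulin 2 binds fibronectin and fibrillin, had the highest mean of them, with 30.5 to 57.6 FPKM (median 42.2) in control tumors, 30.7 to 50.8 FPKM (median 42.1) in swimming tumors and a difference of -0.03 (SE 0.14). Eln, the elastin gene, ranged from 0.198 FPKM in control 4 to 5.37 FPKM in swimming 5, and Fbn1, the fibrillin 1 gene, from 1.91 to 18.6 FPKM. Their differences were 0.21 (SE 0.39) and 0.11 (SE 0.45).

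Mfap4, a microfibril-associated gene, was 0.063 to 2.13 FPKM (median 0.654) in control tumors and 0.113 to 5.05 FPKM (median 0.979) in swimming tumors, with a difference of 0.28 (SE 0.39) that was 0.54 with 0.01 FPKM added in place of 1. It overlaps Mapk7, listed at 4.45 to 7.32 FPKM, so its low values are uncertain. Mfap5, of a different microfibril family, ranged from 1.11 to 9.69 FPKM and Fbln1, the fibulin 1 gene, from 0.143 to 2.56 FPKM. Their differences were -0.19 (SE 0.36) and -0.00 (SE 0.29).

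Lox, Loxl1 and Loxl2 encode lysyl oxidases, and Pcolce encodes a protein that enhances the trimming of procollagen. All 4 genes had their highest values in control 1 and swimming 5. Lox ranged from 1.76 to 14.6 FPKM (median 4.26) in control tumors and from 2.76 to 15.7 FPKM (median 5.08) in swimming tumors, with a difference of 0.18 (SE 0.44). Loxl1 ranged from 1.96 to 14.9 FPKM (median 4.89) and from 2.83 to 15.8 FPKM (median 3.93), with a difference of 0.03 (SE 0.42). The Loxl1 to Lox ratio stayed between 0.634 and 1.46.

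Loxl2 was 13.7 FPKM in control 1 and 2.14 to 4.06 FPKM in the other control tumors, and 2.24 to 9.11 FPKM in swimming tumors. Its difference was 0.00 (SE 0.37), and its ratio to Lox ran from 0.579 to 1.35. Pcolce, with 78.5 to 117 FPKM (median 101) in control tumors and 89.0 to 134 FPKM (median 98.9) in swimming tumors, varied little and had a difference of 0.11 (SE 0.12), which was 0.043 without swimming 5.

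Of the fibroblast surface proteins, Thy1, a membrane glycoprotein also found on lymphocytes, ranged from 6.63 to 17.9 FPKM and Fap, the fibroblast activation protein gene, from 0.219 to 1.29 FPKM. Both were highest in control 1 and next in swimming 5, with differences of -0.05 (SE 0.23) and 0.06 (SE 0.16). Islr, an immunoglobulin-domain protein gene of mesenchymal cells, ranged from 3.87 FPKM in control 4 to 17.5 FPKM in control 2, with a difference of -0.02 (SE 0.31).

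Pdpn encodes podoplanin, a membrane protein of fibroblasts, lymphatic vessels and some tumor cells. It was 27.9, 31.2, 25.3, 44.6, 32.6 and 30.03 FPKM in control 1 to 6 and 36.0, 20.2, 30.8, 18.5, 19.3 and 26.3 FPKM in swimming 1 to 6. Swimming 2, 4 and 5 were below every control tumor, whereas swimming 1 was above all control tumors but control 4. The mean was 31.9 ± 6.70 (SD, n = 6) in control tumors and 25.2 ± 7.14 (SD, n = 6) in swimming tumors. The difference of -0.35 (SE 0.17) had the lowest p of the 39 genes in limma (unadjusted p = 0.0602, adjusted p = 0.889), and the exact permutation test gave a two-sided p of 0.0952. Without swimming 1 the difference was -0.46 with an unadjusted p of 0.0114 in limma, and without control 4 it was -0.25 with an unadjusted p of 0.142.

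Cxcl12, a chemokine made by stromal cells, was 2.83, 1.27, 0.789, 1.70, 0.943 and 2.74 FPKM in control 1 to 6 and 2.08, 1.96, 3.04, 1.58, 2.70 and 3.29 FPKM in swimming 1 to 6. All 6 swimming tumors were above the control median of 1.48 FPKM, and 2 of the control tumors were above 4 of the swimming tumors. The difference of 0.38 (SE 0.20) was the highest among the 39 genes. It depended on the value added before the logarithm, and with 0.1 or 0.01 FPKM in place of 1 it was 0.59 (limma, unadjusted p = 0.0715) or 0.63 (unadjusted p = 0.0709). It did not pass the threshold in limma (unadjusted p = 0.0800, adjusted p = 0.889) or in the two-sided exact permutation test (p = 0.113). Without control 1 and swimming 5 the difference was 0.47 with an unadjusted p of 0.0446 in limma. Without control 3 it was 0.28 with an unadjusted p of 0.182 in limma.

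Serpinf1, whose product PEDF is secreted and restrains vessel growth, was 18.0 to 46.1 FPKM (median 36.5) in control tumors and 23.6 to 38.8 FPKM (median 28.2) in swimming tumors. The lowest value was in control 3, and 1 of 6 swimming tumors was above the control median. Its difference was -0.25 (SE 0.20, limma, unadjusted p = 0.228), and without control 3 it was -0.43 with an unadjusted p of 0.00704. Without control 1 it was -0.17 with an unadjusted p of 0.423 in limma. Igf1, a growth factor gene, was 1.39 FPKM in control 1, 1.80 FPKM in swimming 5 and between 0.143 and 0.834 FPKM in the other tumors, with a difference of 0.09 (SE 0.22).

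The transcription factor gene Prrx1, a mesenchymal regulator, was the steadiest of the 39 genes. It ranged from 24.3 to 32.0 FPKM (median 26.8) in control tumors and from 26.3 to 30.2 FPKM (median 29.4) in swimming tumors, and 5 of 6 swimming tumors were above the control median. The difference was 0.09 (SE 0.07, limma, unadjusted p = 0.188), and 0.14 with an unadjusted p of 0.0311 without control 3. Without control 6 it was 0.0603 with an unadjusted p of 0.374 in limma. Aebp1, a collagen-binding protein gene of fibroblasts, ranged from 12.8 to 34.7 FPKM, highest in swimming 5 and control 1, with a difference of -0.01 (SE 0.24).

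Over the 39 genes, the difference of log2(FPKM + 1) ran from -0.39 to 0.38, with 22 genes above 0, 16 below 0 and Loxl2 at 0.00. The median difference was 0.06, and it was 0.00 over all genes tested, of which 51.7% were above 0. With limma, 0 of the 39 genes were higher (background 3.11%) and 0 were lower (background 2.46%) at an unadjusted p of 0.05. At a fold change of 2 with this p, 0 of the 39 genes were called against 0.105% of all genes tested, and at an adjusted p of 0.05 none of the 39 and 0% of all genes. The groups were fully separate in 0 of the 39 genes, compared with 0.147% of all genes tested. The 95% interval of the difference lay within 1 unit of 0 on the log2(FPKM + 1) scale for 28 genes and reached past 1 unit for 11 genes, among them Col1a1, Col3a1, Postn and Lum. A unit is close to a 2-fold change for strongly expressed genes only, and the intervals of weakly expressed genes such as Cxcl12, Igf1 and Fap do not bound the fold change of their FPKM.

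**Figure D5:**
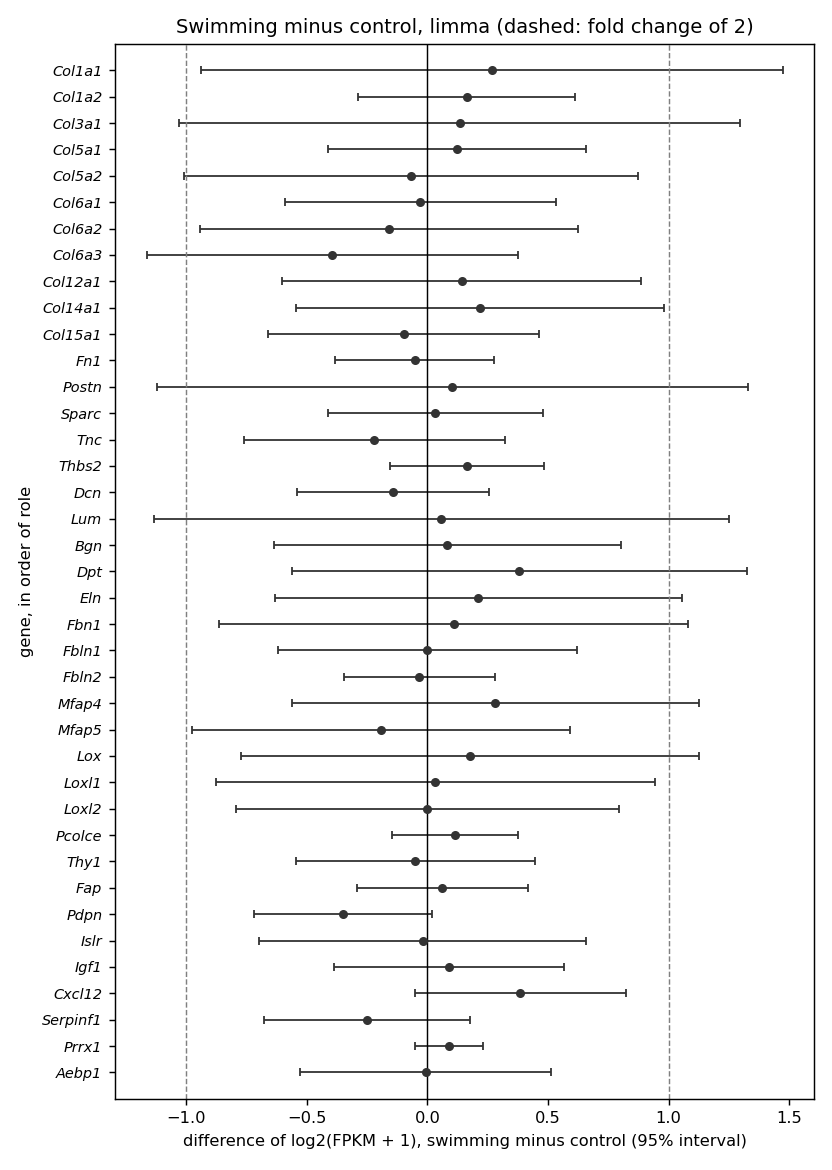
Difference of log2(FPKM + 1), swimming minus control (x axis), for each of the 39 genes (y axis, by role), with points for the limma estimate, bars for its 95% interval and dashed lines at 1 unit either way, a fold change of 2 in FPKM + 1. All 39 intervals cross 0, the point estimates run from -0.39 (Col6a3) to 0.38 (Cxcl12), and 11 intervals reach past a dashed line.

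The 9 ratios within a tumor were compared between the groups by two-sided exact permutation tests, whose smallest possible p is 0.00216. The lowest p was that of Col3a1 to Col1a1, with a median ratio of 1.12 in control tumors and 1.05 in swimming tumors, a log2 difference of -0.14 and p = 0.173 (exact permutation, 0.818 after adjustment over the 9 ratios). The other ratios had exact permutation p values between 0.323 and 0.818, and each was 0.818 after adjustment. Without control 3, 2 ratios passed an unadjusted p of 0.05, Col3a1 to Col1a1 (log2 difference -0.20, exact permutation p = 0.0260) and Col6a3 to Col6a1 (log2 difference -0.65, exact permutation p = 0.00649). Without control 4 these log2 differences were -0.0858 and -0.11.

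Genes that act on the same matrix were read from further lists. Of 12 basement membrane genes and 23 other fibroblast markers tested, none passed an unadjusted p of 0.05 in limma, and none of the genes in any of these lists passed a fold change of 2 at that p or an adjusted p of 0.05. Of 18 enzymes and chaperones of collagen synthesis, 1 was higher and 0 were lower, beside 3.11% higher and 2.46% lower of all genes tested, so that this count is near the background. The gene was P4ha1, a prolyl hydroxylase subunit, with 45.6 ± 5.69 FPKM (SD, n = 6) in control tumors and 55.0 ± 10.2 FPKM (SD, n = 6) in swimming tumors, a difference of 0.25 and a limma unadjusted p of 0.0459 (exact permutation p = 0.0909). It no longer passed in 10 of 22 other settings, among them without swimming 6, where the difference was 0.19 and the unadjusted limma p 0.109.

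Of 20 genes of the TGF-beta pathway, which drives matrix production in fibroblasts, 0 were higher and 1 was lower, again near the 3.11% and 2.46% of all genes tested. Ccn2, a matricellular gene that TGF-beta induces, was 60.9, 39.3, 31.7, 15.4, 10.1 and 18.0 FPKM in control 1 to 6 and 9.43 to 17.0 FPKM in swimming tumors. It was high in 3 control tumors, and the other 3 lay within or close to the range of the swimming tumors. The difference was -0.92 (SE 0.35, limma, unadjusted p = 0.0202, adjusted p = 0.889, exact permutation p = 0.0455). Without control 1 it was -0.66 (limma, unadjusted p = 0.0415).

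Of 14 matrix receptors, 0 were higher and 1 was lower, beside the same background. Itga5, the alpha chain of the main fibronectin receptor, was 33.9 to 56.8 FPKM in control tumors and 34.8 to 39.9 FPKM in swimming tumors. Control 5 lay below all swimming tumors, and the other 5 control tumors lay above them all. The difference was -0.31 (SE 0.10, limma, unadjusted p = 0.00595, adjusted p = 0.889, exact permutation p = 0.0173).

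The order of tumors seen in the 39 genes was shared by some of these lists, and by markers of other cell types. Control 1 and swimming 5 were the 2 highest tumors for 9 of 23 other fibroblast markers (39.1%) and 7 of 18 collagen synthesis genes (38.9%), for 2 of 20 TGF-beta genes, 1 of 12 basement membrane genes (8.33%) and 1 of 14 matrix receptors (7.14%), beside 6.24% of all genes tested. The same held for 4 of 5 adipocyte markers tested (80.0%), 8 of 12 endothelial markers (66.7%), 2 of 3 B cell markers (66.7%), 6 of 11 mural and myofibroblast markers (54.5%), 4 of 10 macrophage markers (40.0%), 2 of 10 T and NK cell markers, and 0 of 12 skeletal muscle markers. Mmp2, a gelatinase gene of stromal cells, ranged from 3.04 FPKM in control 5 to 31.3 FPKM in swimming 5, and the follistatin-like gene Fstl1 from 4.53 to 43.9 FPKM in the same tumors. Twist1, a mesenchymal transcription factor gene, stayed between 70.0 and 88.2 FPKM and the collagen gene Col8a1 between 45.9 and 61.3 FPKM, like Prrx1 without a high value in either tumor. These 4 genes were chosen after their values were seen.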

How the data were processed

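RNA-Seq libraries were made from rRNA-depleted RNA of 12 CT-26 tumors, and the paper credits the experiments to the company CapitalBio. The tumors were a random selection from the larger groups of mice in the study. Per the labels, reads were mapped with HISAT2 2.0.5 and quantified with StringTie 1.3.3. The methods name hg38 and the processing notes list hg38 and GRCm38, while the identifiers are of mouse genes. The authors deposited FPKM per gene, already divided by length and depth. Reads of overlapping genes are divided within these values, and strand use is not given in the sources used here. FPKM hold no counts, so depth is unknown in absolute terms and counting error is not given.

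Symbols and coordinates were matched by identifier to GENCODE M21 on GRCm38 (30578 of 30630). The 19018 genes that reached 0.1 FPKM in 6 or more tumors were compared on log2(FPKM + 1), which understates changes of weak genes, with limma 3.58.1 (R 4.3.3, eBayes with trend, no covariate, Benjamini-Hochberg over all genes). The cut-off was a fold change of 2 with an unadjusted p of 0.05, a reading of the study's cut-off. Exact permutation tests covered all divisions into 6 and 6. On simulated data for this comparison over 19018 genes, 65%, 95% and 96% of 200 genes changed by 0.5, 1 and 1.5 on the log2 scale were recovered at an adjusted p of 0.05, with 6 false calls each. The 200 genes were drawn from all genes with a mean above 1 FPKM. The SD of 33 of the 39 genes was above the 90th percentile of all genes tested, so these shares do not apply to the 39 genes.

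The members and lists were chosen with earlier results of these data known. Values are given for the highest member of each of 10 roles, members of the 9 ratios, and the 3 members at each end of the difference and of the SD, with ranges for the others. Of the further lists, genes at an unadjusted p of 0.05 are named. Ccn2 is named Ctgf in the older symbols. Other pseudocounts (0.1 and 0.01), filters, scalings, weights, a replicate block and leaving out each tumor were tried. Leaving out control 1 and swimming 5 together was added after seeing the data. Versions of Python, pandas, scipy and matplotlib were 3.11.15, 2.3.3, 1.17.1 and 3.10.9.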

Additional observations from a re-analysis of the deposited data

Results flagged for a closer look

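In 6 of 96 groups of 6 tumors, a single tumor lay so far from the others that its gap to the nearest was above Dixon's 95% limit as a share of the range. The limit was applied to log2(FPKM + 1) and to log2 ratios, so a tumor that stands far out in FPKM, such as swimming 5 for Postn, need not be flagged. For independent groups of normal values about 1 in 20, or 4.8 such groups, would be expected. The genes share the same tumors and the ratios share genes, so this count cannot show whether outlying tumors are more frequent than that. Sparc was 278 FPKM in swimming 5 and 160 to 195 FPKM in the other swimming tumors. Loxl2 was 13.7 FPKM in control 1 and 2.14 to 4.06 FPKM in the other control tumors. Igf1 was 1.39 FPKM in control 1 and 0.143 to 0.441 FPKM in the others. Serpinf1 was 18.0 FPKM in control 3, below 32.7 to 46.1 FPKM in the other control tumors. Prrx1 was 26.3 FPKM in swimming 3 and 28.9 to 30.2 FPKM in the other swimming tumors. The Col3a1 to Col1a1 ratio was 0.882 in swimming 3 and 1.03 to 1.13 in the other swimming tumors. The causes were not tested.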

How the results depend on the processing

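At a fold change of 2 with an unadjusted p of 0.05, and at an adjusted p of 0.05, 0 of the 39 genes were called in limma under every setting run. At an unadjusted p of 0.05, leaving out each tumor in turn gave 0 to 1 genes higher and 0 to 3 lower. Cxcl12 was called without control 1, control 6 or swimming 4, Pdpn without control 3, swimming 1 or swimming 3, and Prrx1, Col6a3 and Serpinf1 without control 3. Without control 1 and swimming 5 together, 1 gene was higher (Cxcl12) and Fbln2 turned to 0.0301. The median difference of the 39 genes ran from -0.13 without swimming 5 to 0.21 without control 1. With sample weights Postn turned to -0.0135, Lum to -0.0285 and Loxl1 to -0.0038. Adding 0.01 in place of 1 before the logarithm moved Cxcl12 from 0.38 to 0.63 and Mfap4 from 0.28 to 0.54.

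Leaving out each tumor in turn also turned small differences, with ranges of -0.0431 to 0.65 for Col1a1, -0.19 to 0.51 for Col3a1, -0.0209 to 0.29 for Col5a1, -0.18 to 0.14 for Col6a1, -0.38 to 0.078 for Col6a2, -0.26 to 0.0814 for Col15a1, -0.12 to 0.0366 for Fn1, -0.28 to 0.43 for Postn, -0.32 to 0.40 for Lum, -0.12 to 0.0547 for Fbln2, -0.0236 to 0.46 for Mfap4, -0.11 to 0.48 for Lox, -0.25 to 0.31 for Loxl1 and -0.21 to 0.31 for Loxl2. Without a change of sign, Col1a2 ran from 0.0405 to 0.30, Dpt from 0.0979 to 0.69, Dcn from -0.23 to -0.0109, Pcolce from 0.043 to 0.17, Serpinf1 from -0.43 to -0.17, Col6a3 from -0.68 to -0.21, Pdpn from -0.46 to -0.25, Cxcl12 from 0.28 to 0.50 and Prrx1 from 0.0603 to 0.14. Log2 ratio differences ran from -0.0829 to 0.35 for Col1a1 to Col1a2, -0.35 to 0.0223 for Col5a1 to Col1a1, -0.75 to 0.0768 for Fn1 to Col1a1, -0.57 to 0.31 for Dcn to Lum, -0.20 to -0.0858 for Col3a1 to Col1a1 and -0.65 to -0.11 for Col6a3 to Col6a1. The causes were not tested.

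With the replicate number as a block, 0 of the 39 genes were called at an unadjusted p of 0.05, and no other call on them changed. Same-numbered tumors, which were from different mice, did not deviate together (mean correlation -0.12, 0 of 6 pairs above 0.1). With 6 pairs, a weak link between same-numbered tumors could not be seen. Over all 19018 genes, limma called 0 at an adjusted p of 0.05 and 1058 at an unadjusted p of 0.05, and the adjusted count was 1 under sample weights, 3 without control 4 and 2 without swimming 1. FPKM hold no read numbers, so the precision of genes below 1 FPKM, such as Fap and Igf1, could not be given.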
